A study of Mus musculus with 6 samples.

Results

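Mobp, Ermn, Pmp22, Mbp, Mag, Mog, Cnp and Mal are genes of the myelin sheath, the layered membrane that glial cells wrap around axons, and they are 8 of the 19937 genes represented on these arrays. Mobp, Ermn and Pmp22 were picked because they were strongly higher in Sox17-GOF islets on the same arrays, so their values are given as a description with no test, whereas Mbp, Mag, Mog, Cnp and Mal were added as further classical myelin genes to see whether they moved too. Each of the 8 genes had 1 probe set, and each gene identifier matched the RefSeq annotation.

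Pancreatic islets were isolated from 16-week-old male mice on a C57BL/6 background after 24 hours of doxycycline, and total RNA from whole islets was hybridised to Affymetrix Mouse Gene ST arrays, 1 array per sample. The 3 Sox17-GOF samples had the genotype Ins2-rtTA;tetO-Sox17, so that doxycycline turned on the transcription factor SOX17 through an activator driven in insulin-producing cells. The genotype label of the 3 control samples is Ins2-rtTA, and they had received doxycycline as well, so that by the labels both the activator and the drug were shared by the 2 groups. A legend for another experiment with the same model names tetO-Sox17 controls, and the labels were followed here. The methods call the samples of a genotype independent biological triplicates, and the RNA was amplified before labelling.

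In the brain and spinal cord myelin is made by oligodendrocytes, and in peripheral nerves by Schwann cells. Both deposit a compacted membrane rich in lipid and in a small set of abundant proteins. Islets contain no oligodendrocytes, but they are ensheathed by peripheral glia that resemble non-myelinating Schwann cells and reach them with their nerves. SOX17 is best known for its roles in endoderm and endothelium, and it has also been studied in the differentiation of oligodendrocyte progenitors.

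Expression is given as deposited log2 values, so that a difference of 1 is a 2-fold difference. Array medians were 6.31 to 6.41 in Sox17-GOF islets and 6.35 to 6.38 in control islets, and 20% of all values lay below 4.63, where signal is close to background. Sox17 had log2 levels of 6.35, 6.22 and 6.36 in Sox17-GOF islets, against 5.50, 5.72 and 5.71 in control islets (adjusted p = 0.00876, limma; two-sided exact permutation p = 0.1, the smallest that 3 arrays against 3 allow), in the direction that the labels give. Across all probe sets with a gene symbol, the first principal component (48.4% of the variance) separated the 2 genotypes. The second component (19.8%) set Sox17-GOF replicate 3, at -26.28, apart from replicates 1 and 2, at 17.42 and 13.08. Values without that array are given for each of the 8 genes.

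The sequences upstream of the genes are shown first, because the members that were higher differed in how often they hold the short core that SOX proteins recognise. RefSeq windows (GRCm38.p6) from 250 bases before to 50 bases after the annotated start were available for 7 of the 8 genes, in 12 windows, and none is shown for Mbp. The windows were searched on both strands for ACAAAG and ACAAT. The windows of Mobp (chr9:120149492-120149791, plus strand), Ermn (chr2:58052815-58053114, minus strand), Cnp (chr11:100574689-100574988, plus strand) and the first of 4 Pmp22 windows (chr11:63128732-63129031, plus strand) are given 5′ to 3′ along the gene. Capitals mark the matches, and CTTTGT is ACAAAG read on the opposite strand.
Mobp: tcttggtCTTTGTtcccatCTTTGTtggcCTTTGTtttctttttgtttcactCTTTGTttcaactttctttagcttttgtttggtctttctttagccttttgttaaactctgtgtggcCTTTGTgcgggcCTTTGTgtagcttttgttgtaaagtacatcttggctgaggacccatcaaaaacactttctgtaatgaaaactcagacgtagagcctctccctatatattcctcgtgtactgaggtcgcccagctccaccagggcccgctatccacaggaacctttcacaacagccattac
Ermn: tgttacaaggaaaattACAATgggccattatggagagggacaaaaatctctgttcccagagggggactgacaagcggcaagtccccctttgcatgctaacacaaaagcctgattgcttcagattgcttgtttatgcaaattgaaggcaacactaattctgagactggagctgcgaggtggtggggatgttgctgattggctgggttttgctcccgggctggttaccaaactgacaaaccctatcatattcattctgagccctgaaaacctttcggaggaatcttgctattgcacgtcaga
Cnp: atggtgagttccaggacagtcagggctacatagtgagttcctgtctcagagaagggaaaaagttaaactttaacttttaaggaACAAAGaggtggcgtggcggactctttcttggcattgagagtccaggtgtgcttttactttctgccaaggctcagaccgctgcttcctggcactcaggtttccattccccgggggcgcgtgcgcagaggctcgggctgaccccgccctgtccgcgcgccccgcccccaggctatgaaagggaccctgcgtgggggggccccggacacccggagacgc
Pmp22: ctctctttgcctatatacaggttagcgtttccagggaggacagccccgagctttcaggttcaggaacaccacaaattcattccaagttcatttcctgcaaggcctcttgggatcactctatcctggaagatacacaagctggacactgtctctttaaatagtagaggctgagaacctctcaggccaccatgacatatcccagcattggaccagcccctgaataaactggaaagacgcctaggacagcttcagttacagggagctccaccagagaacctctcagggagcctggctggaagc

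The Mobp window held 6 matches to ACAAAG, all on the strand opposite to the gene, which began at positions -243, -231, -221, -198, -132 and -120 from the start site. Of 32851 RefSeq promoter windows of the same length (27025 genes), 18.7% held at least 1 match, 2.37% at least 2 and 0.198% at least 3, and Mobp was the single window with 6. It held no ACAAT. The Ermn window held no ACAAAG and 1 ACAAT, a motif found in 31.0% of all windows. The 4 Pmp22 windows held neither motif. Cnp held 1 ACAAAG on its own strand, at position -167, and no ACAAT. Of the members that did not pass the test, Mag held 1 ACAAAG that lies in both of its overlapping windows, while Mog and Mal held neither motif. Repeated matches of this kind were therefore a feature of Mobp and not shared by Ermn or Pmp22. A match is a string of letters and says nothing of whether SOX17 binds there.

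**Figure D1:**
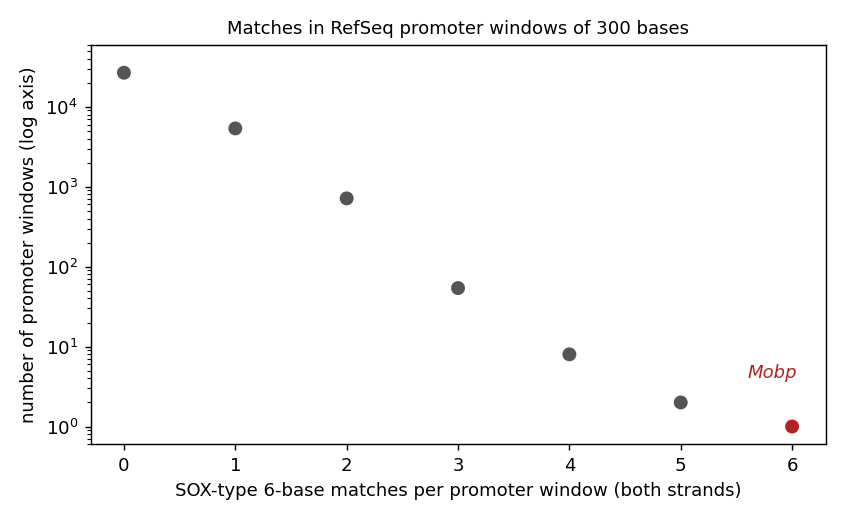
Number of RefSeq promoter windows of 300 bases (log axis) against the number of matches to the SOX-type 6-base core on either strand, each point a match count. Mobp, in red, is the 1 window of 32851 with 6 matches, and 3 windows held at least 5.

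Among the 3 genes chosen by their rise, Mobp differed most between Sox17-GOF and control islets. The rule used this contrast, and for scale 0.165% of the 22961 named probe sets had a log2 difference of at least 2 and 1.05% of at least 1. Mobp encodes myelin-associated oligodendrocyte basic protein, a small, positively charged protein of central nervous system myelin that is thought to help hold its layers together. Its probe set (10590269) read 10.43, 10.22 and 9.79 in Sox17-GOF islets, against 5.71, 5.72 and 5.66 in control islets. The controls lay close together, and every Sox17-GOF array lay more than 4 units above every control. The group means were 10.15 ± 0.33 in Sox17-GOF islets and 5.70 ± 0.03 in control islets (SD, n = 3 each), a log2 difference of 4.45 or 21.8-fold, which was the second highest of the 19937 genes. Without Sox17-GOF replicate 3 the difference was 4.63. The arrays measured whole islets, so a change in the RNA of each cell and a change in the number of cells of a type cannot be told apart.

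Ermn encodes ermin, an actin-binding protein of the oligodendrocyte cytoskeleton that appears late in myelination. Its probe set (10482795) read 7.81, 7.42 and 7.48 in Sox17-GOF islets, against 4.32, 4.22 and 4.38 in control islets. The control values all lay under 4.63, near the background of the arrays, whereas the Sox17-GOF values were above the array medians. The means were 7.57 ± 0.21 in Sox17-GOF islets and 4.30 ± 0.08 in control islets (SD, n = 3 each), a log2 difference of 3.27 or 9.63-fold, the ninth highest of all genes. It was 3.31 without Sox17-GOF replicate 3. The fold of Ermn is thus taken against a level near background.

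Pmp22 encodes peripheral myelin protein 22, a tetraspan membrane protein of compact Schwann cell myelin that is also made in many epithelia. Its probe set (10376950) read 10.21, 9.59 and 9.87 in Sox17-GOF islets, against 7.97, 7.79 and 7.45 in control islets. Unlike Ermn, Pmp22 lay above the 20th percentile on every control array. The means were 9.89 ± 0.31 in Sox17-GOF islets and 7.73 ± 0.26 in control islets (SD, n = 3 each), a log2 difference of 2.15 or 4.45-fold, rank 28 of 19937. Without Sox17-GOF replicate 3 it was 2.17. Mobp, Ermn and Pmp22 were each highest in Sox17-GOF replicate 1, but they did not share a lowest array. Mobp was lowest of the Sox17-GOF arrays in replicate 3, Ermn and Pmp22 in replicate 2.

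**Figure D2:**
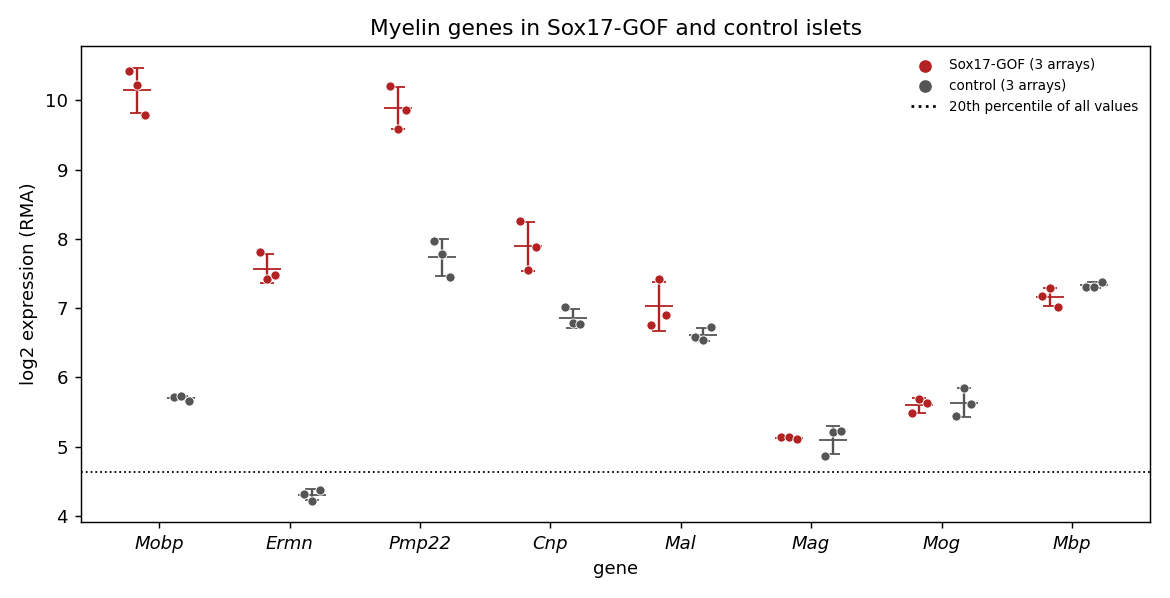
Deposited log2 expression of the 8 myelin genes on each array (points), with group mean (bar) and SD (whiskers), Sox17-GOF in red to the left of control in grey; the dotted line is the 20th percentile of all values, 4.63. Mobp, Ermn, Pmp22 and Cnp sit apart in the 2 genotypes, while Mag and Mog overlap.

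Of the 5 myelin genes that were not chosen by their change, 1 (20%) was higher in Sox17-GOF islets, none lower, and 4 were not called. For comparison, 4.93% of the 22961 probe sets tested passed in either direction (2.61% higher and 2.32% lower). The gene that rose was Cnp, which encodes 2′,3′-cyclic nucleotide 3′-phosphodiesterase, an enzyme of the non-compact myelin membrane that is also found outside glia. Its probe set (10381154) read 8.26, 7.55 and 7.88 in Sox17-GOF islets, against 7.01, 6.78 and 6.77 in control islets. The lowest Sox17-GOF array was above the highest control array. Cnp averaged 7.90 ± 0.36 in Sox17-GOF islets and 6.85 ± 0.14 in control islets (SD, n = 3 each), a 2.06-fold difference (log2 fold change 1.04, SE (standard error) 0.17, 95% interval 0.64 to 1.44, adjusted p = 0.0176 from limma). The call ended when any 1 control array was left out (adjusted p = 0.0501, 0.0820 and 0.0664 without replicates 1, 2 and 3) and with unnamed probe sets included (0.0546), while the log2 fold change stayed between 0.86 and 1.21. It was 1.05 without Sox17-GOF replicate 3.

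Mal encodes a raft-associated proteolipid that oligodendrocytes, Schwann cells and epithelia use to sort proteins to the membrane. Mal read 6.75, 7.43 and 6.91 in Sox17-GOF islets, against 6.59, 6.54 and 6.72 in control islets. The groups did not overlap, but Sox17-GOF replicate 1 lay only just above control replicate 3. The log2 fold change was 0.41 (SE 0.17, 95% interval 0.02 to 0.80, adjusted p = 0.241, limma), and it did not pass. It was 0.21 without Sox17-GOF replicate 2, the highest array, and 0.47 without Sox17-GOF replicate 3. Complete separation of 3 arrays from 3 was common on these arrays, with 24.9% of all probe sets separated, 11.1% above and 13.8% below.

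Mbp, Mag and Mog, which encode defining proteins of oligodendrocyte myelin, did not pass the test. Mbp encodes myelin basic protein, which fuses the inner faces of the sheath and without which central myelin does not compact. Mbp read 7.18, 7.29 and 7.02 in Sox17-GOF islets, against 7.30, 7.31 and 7.38 in control islets (means 7.16 ± 0.13 and 7.33 ± 0.04; SD, n = 3 each). The Sox17-GOF arrays were all below the controls, by a small margin. The log2 fold change was -0.17 (SE 0.09, 95% interval -0.37 to 0.04, adjusted p = 0.369, limma). Without Sox17-GOF replicate 3, the lowest array, it was -0.097.

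Mag, the myelin-associated glycoprotein of the membrane facing the axon, read 5.14, 5.13 and 5.11 in Sox17-GOF islets, against 4.86, 5.21 and 5.22 in control islets. Mog, the oligodendrocyte glycoprotein of the outermost sheath surface, read 5.48, 5.69 and 5.63 in Sox17-GOF islets, against 5.44, 5.85 and 5.62 in control islets. Both were a little above the 20th percentile in both genotypes, and their groups overlapped. The log2 fold change was 0.03 for Mag (95% interval -0.22 to 0.28, adjusted p = 0.913) and -0.04 for Mog (95% interval -0.32 to 0.24, adjusted p = 0.903), both from limma. The sign of either turned when single arrays were left out, and without Sox17-GOF replicate 3 they were 0.04 and -0.05. Over the 8 genes the log2 differences ran from 4.45 for Mobp to -0.17 for Mbp, with Mag and Mog near 0.

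The question was then extended to 84 other genes of myelin and glia, of which 76 were measured. These comprised proteins of central and peripheral myelin, enzymes of myelin lipids, markers of Schwann and satellite glia and of oligodendrocyte progenitors, and transcription factors of myelination, with Sox17 itself left out of the counts. In Sox17-GOF islets 4 of the 76 rose (5.26%), 1 fell and 71 did not pass. The 4 and the 1 were called by limma, and the methods' t-test called 0 after adjustment. Of all 19937 genes, 552 rose (2.77%) and 487 fell. The median log2 fold change was 0.08 over these genes and -0.01 over all genes. Every Sox17-GOF array lay above every control array for 13 of the 76 (17.1%) and below for 3. Among all 19937 genes, 11.3% lay above in this way and 2829 genes lay below. The other 8 were not analysed here.

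The 22 measured central myelin proteins held 2 that rose (9.09%, against 2.77% of all genes) and 1 that fell (against 487 of 19937). Car2, carbonic anhydrase II, an enzyme of oligodendrocytes that many epithelia also use, read 8.05, 7.48 and 7.91 in Sox17-GOF islets, against 5.55, 5.53 and 5.45 in control islets. Car2 rose 4.95-fold (log2 fold change 2.31, SE 0.14, adjusted p = 0.000327, limma), where Pmp22 was 4.45-fold higher. Gpr37, an orphan receptor that restrains oligodendrocyte maturation in mice, read 6.00, 6.14 and 5.86 in Sox17-GOF islets, against 5.33, 5.41 and 5.34 in control islets. It rose 1.56-fold (SE of log2 0.09, adjusted p = 0.00985, limma).

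Tspan2, a tetraspanin of oligodendrocytes, ran the other way. It read 8.35, 8.50 and 8.0045 in Sox17-GOF islets, against 8.97, 8.84 and 8.89 in control islets, and fell by 0.61 on the log2 scale (SE 0.13, adjusted p = 0.0402, limma). The call ended without Sox17-GOF replicate 1 or any 1 control (adjusted p up to 0.140), with median centring (0.0598), with all probe sets (0.0954) and with a replicate block (0.0696). Qdpr, a pteridine reductase enriched in oligodendrocytes, and Apod, a lipid-binding lipocalin, were the brightest of those that did not pass (log2 fold changes 0.16 and 0.51, adjusted p = 0.423 and 0.208). Cldn11, the tight junction claudin of the sheath, and Opalin, an oligodendrocyte membrane protein, had log2 fold changes of -0.12 and 0.05 (adjusted p = 0.676 and 0.754), and Opalin lay below the 20th percentile in both genotypes.

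Of 9 enzymes of myelin lipids 1 rose (11.1%, against 2.77% of all genes). Elovl7, which elongates saturated fatty acids, read 9.90, 9.47 and 9.40 in Sox17-GOF islets, against 8.39, 8.09 and 8.67 in control islets, a 2.31-fold increase (log2 fold change 1.21, SE 0.18, adjusted p = 0.0114, limma). Its adjusted p was 0.0508 without control replicate 1. The enzymes that make the galactolipids characteristic of myelin did not pass. Ugt8a, which makes galactosylceramide, had a log2 fold change of -0.18 (adjusted p = 0.646), Gal3st1, which sulfates it, -0.05 (0.858), and Fa2h, which hydroxylates its fatty acids, 0.07 (0.703). Cers2 and Elovl1, which build very long chain ceramides, were the brightest that did not pass, at 0.17 and 0.20 (0.355 and 0.417).

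Of 8 peripheral myelin genes 1 rose as well (12.5%, against 2.77% of all genes). Mpzl1, a widely expressed membrane protein that signals in adhesion, read 9.59, 9.59 and 9.71 in Sox17-GOF islets, against 8.58, 8.35 and 8.20 in control islets. It was 2.39-fold higher (log2 fold change 1.26, SE 0.11, adjusted p = 0.00155, limma). Genes more restricted to Schwann cell myelin did not pass. Gjb1, the gap junction protein connexin 32, had a log2 fold change of 0.01 (adjusted p = 0.993), Cldn19, a claudin of the Schwann cell sheath, -0.06 (0.754), and Pmp2, the fatty acid binding protein of peripheral myelin, -0.02 (0.956), the last below the 20th percentile in both genotypes.

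**Figure D3:**
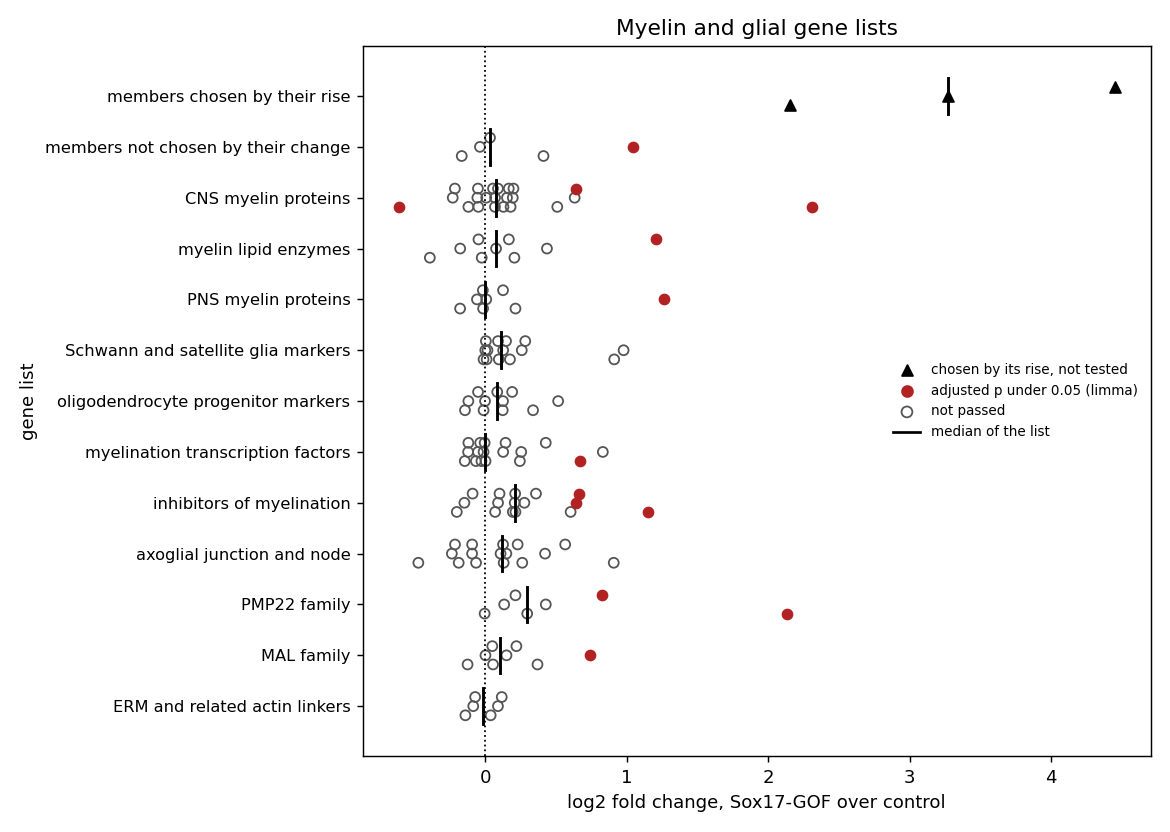
Log2 fold change, Sox17-GOF over control, of each gene (circle) in lists of myelin, glial and related genes, filled red where the adjusted p from limma is under 0.05, with the list's median as a black bar; triangles are Mobp, Ermn and Pmp22, which were chosen by their rise and not tested. The medians of the 6 myelin and glial lists from central myelin proteins down to transcription factors lie between -0.01 and 0.11.

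None of the 14 Schwann and satellite glia markers passed the limma test (2 higher and 0 lower at an unadjusted p under 0.05), and their median log2 fold change was 0.11. Of the 14, 12 had a log2 fold change above 0 and 2 below, where 9387 of all 19937 genes were above 0. Whether this split differs from that of all genes was not tested. The share of all genes at that unadjusted cut-off was not counted, here or for the lists below. Sox10, the transcription factor that defines the oligodendrocyte and Schwann lineages, read 6.79, 6.67 and 6.73 in Sox17-GOF islets, against 6.47, 6.57 and 6.77 in control islets (log2 fold change 0.13, 95% interval -0.10 to 0.35, adjusted p = 0.557, limma). S100b, a calcium-binding protein of glia, and Gfap, the glial intermediate filament, had log2 fold changes of 0.09 and 0.01 (95% intervals -0.24 to 0.42 and -0.22 to 0.24, adjusted p = 0.801 and 0.980). Foxd3, a neural crest and glial factor, had 0.15 (adjusted p = 0.393). Cdh19, a Schwann cell cadherin, had 0.28 (0.179) and lay below the 20th percentile in both genotypes. Olig1 and Olig2, the oligodendrocyte lineage factors, had -0.01 and -0.12 (0.961 and 0.541), and Myrf, which switches on myelin genes in oligodendrocytes, had 0.14 (0.487).

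The levels of some glial genes varied widely between arrays within each genotype. Fabp7, a fatty acid binding protein of glia, read 8.83, 9.77 and 10.58 in Sox17-GOF islets, against 9.63, 9.26 and 7.35 in control islets (log2 fold change 0.98, adjusted p = 0.478, limma). Scn7a, a sodium channel of non-myelinating Schwann cells, read 4.78, 5.69 and 6.75 in Sox17-GOF islets, against 5.22, 4.96 and 4.31 in control islets (log2 fold change 0.91, adjusted p = 0.350, limma). Both were highest in Sox17-GOF replicate 3 and lowest among controls in replicate 3. The mean over the 14 markers was 5.99, 6.20 and 6.45 in Sox17-GOF islets, against 6.14, 6.03 and 5.81 in control islets, and the groups overlapped. Ngfr, a neurotrophin receptor of Schwann cells, had a log2 fold change of 0.09 (adjusted p = 0.604).

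Other cell types were followed in the same way. Stellate and fibroblast markers averaged 6.71, 7.20 and 7.29 in Sox17-GOF islets, against 6.75, 6.77 and 6.33 in control islets, and 0 of 9 passed the limma test (4 higher at an unadjusted p under 0.05). Duct markers averaged 7.12, 7.32 and 7.91 in Sox17-GOF islets, against 7.16, 7.06 and 7.07 in control islets, and 0 of 4 passed (1 higher and 1 lower at an unadjusted p under 0.05). Their averages were highest in Sox17-GOF replicate 3, and Krt19, a duct keratin, read 9.13 there against 6.74 and 7.07 in the other Sox17-GOF arrays and 6.53, 6.30 and 6.16 in control islets. Krt7, another duct keratin, ran the other way, with 10.26, 10.36 and 10.08 in Sox17-GOF islets, against 10.54, 10.58 and 10.62 in control islets. Its log2 fold change was -0.34 (adjusted p = 0.0849, limma). Endothelial, leukocyte and acinar averages overlapped between the groups. Kdr, an endothelial growth factor receptor, was the 1 of 10 endothelial markers that passed (log2 fold change -0.68, adjusted p = 0.0160). At an unadjusted p under 0.05, 3 endothelial markers were higher and 3 lower, Kdr among the lower. For leukocyte markers 0 of 10 passed (2 lower at an unadjusted p under 0.05), for acinar markers 0 of 7 and for astrocyte markers 0 of 8. Of 14 markers of peripheral neurons, Snap25, a SNARE that endocrine cells also use, rose (0.47, adjusted p = 0.0472). Th, tyrosine hydroxylase, and the receptor gene Ret fell (-0.94 and -0.84, adjusted p = 0.00580 and 0.00431). Uchl1 had the highest log2 fold change of that list (1.21, adjusted p = 0.0869, limma) but did not pass. Of the 14, 7 had a log2 fold change above 0 and 7 below. In which cells these genes differed was not tested. Of all 19937 genes, 2.77% rose and 487 fell. The call of Kdr ended without Sox17-GOF replicate 2 or control replicate 1 or 3 (adjusted p up to 0.0599), and that of Snap25 without any array but Sox17-GOF replicate 3 (up to 0.154). None of 5 islet hormone genes passed, but Ins2, Gcg, Sst and Ppy averaged 12.92 to 13.62 in Sox17-GOF islets and 12.95 to 13.71 in control islets, toward the highest values of the arrays (14.14 to 14.22), where a change may show little. The same limit holds for the acinar markers. How far these shifts enter the values of Pmp22 and Car2, which duct and fibroblast cells can express, was not tested.

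**Figure D4:**
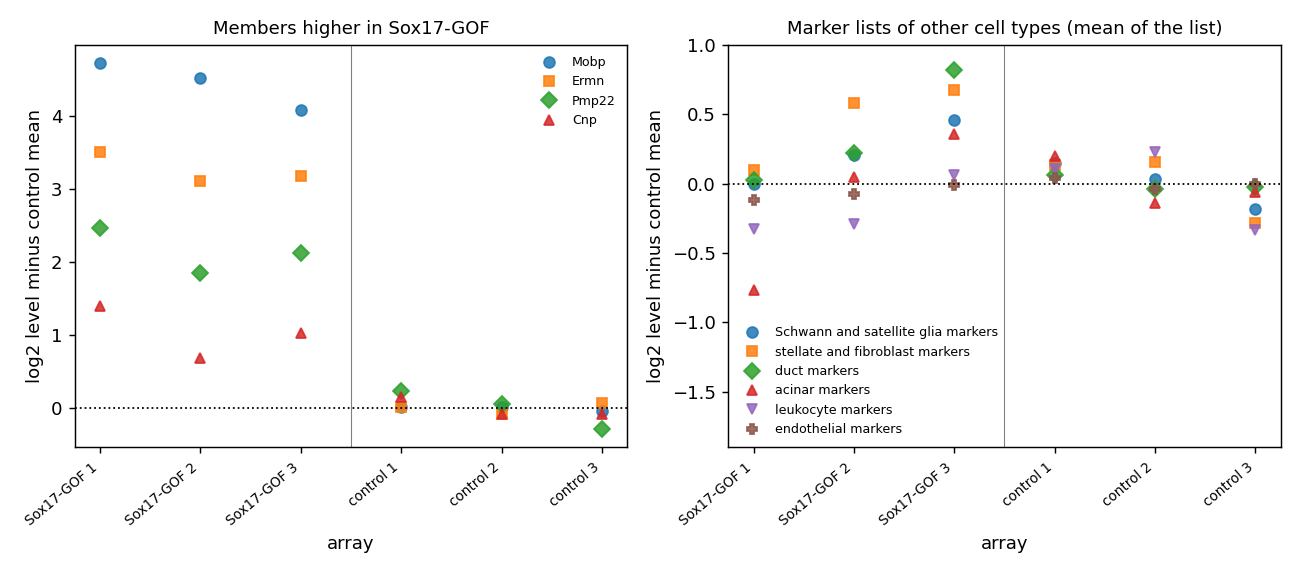
Left, log2 level of Mobp, Ermn, Pmp22 and Cnp on each array minus the control mean; right, the mean of each marker list of another cell type, drawn the same way. On the left all Sox17-GOF points lie above all control points, while on the right the Schwann and satellite glia points of the 2 genotypes overlap.

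Markers of oligodendrocyte progenitors did not pass the test either, with 0 of 11 called (2 higher at an unadjusted p under 0.05) and a median of 0.08. Ptprz1, a receptor phosphatase of progenitors, had a log2 fold change of 0.51 (adjusted p = 0.169, limma), and Cspg4, the NG2 proteoglycan, -0.05 (0.845). For Ptprz1 every Sox17-GOF array lay above every control array, as in 11.3% of all genes. Of 17 transcription factors of myelination, Sox17 itself was the 1 that passed (5.88% higher, against 2.77% of all genes). Egr2, the master regulator of Schwann cell myelination, read 6.93, 6.84 and 7.66 in Sox17-GOF islets, against 6.36, 6.31 and 6.28 in control islets (log2 fold change 0.83, SE 0.20, adjusted p = 0.0644). The zinc finger gene St18 had a log2 fold change of 0.43 (adjusted p = 0.0704), and Yy1, a zinc finger regulator, -0.15 (0.367). None of these 3 passed. Egr2 is named after its value was seen.

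Of 16 genes listed with inhibitors of myelination, 3 rose (18.8%, against 2.77% of all genes) and none fell, with a median log2 fold change of 0.21. Not every gene of this list acts as an inhibitor itself. Whether this list differs from all genes or from the myelin lists was not tested. Sox6, a SOX factor that keeps oligodendrocyte progenitors from maturing, read 6.67, 6.58 and 6.41 in Sox17-GOF islets, against 5.98, 5.88 and 5.82 in control islets (log2 fold change 0.66, SE 0.09, adjusted p = 0.00924, limma; 0.0511 without control replicate 2). Jag1, a Notch ligand on axons that delays oligodendrocyte differentiation, read 6.20, 6.33 and 6.19 in Sox17-GOF islets, against 5.48, 5.67 and 5.67 in control islets (0.64, SE 0.09, adjusted p = 0.00876). Egr1, an immediate early gene of immature Schwann cells, read 7.70, 7.99 and 8.38 in Sox17-GOF islets, against 7.22, 6.85 and 6.54 in control islets (1.15, SE 0.21, adjusted p = 0.0264). The call of Egr1 ended without Sox17-GOF replicate 2 or control replicate 2 or 3 (adjusted p up to 0.104), with all probe sets (0.0728) and with a replicate block (0.0848). Jun, another immediate early gene that holds back Schwann cell differentiation, had 0.60 (adjusted p = 0.139), and Id2, an inhibitor of basic helix-loop-helix factors, had -0.20 (0.682). Egr1 and Jun are made by many cell types and can be induced when tissue is dissociated.

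The cell adhesion molecules of the axon-glia junction and the node held 0 of 16 called by limma, with 3 higher and 2 lower at an unadjusted p under 0.05. Cntn1, an axonal contactin, had a log2 fold change of 0.56 (adjusted p = 0.0738, limma), and Epb41l3, a paranodal scaffold also known as protein 4.1B, had -0.47 (adjusted p = 0.0510). Nrcam had the highest log2 fold change of the 16 (0.91, adjusted p = 0.0711, limma), and Epb41l3 the lowest.

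Relatives of the members were examined next, to see whether members of a protein family moved with Pmp22, Mal or Ermn. In the PMP22 family, 2 of 7 relatives rose (28.6%, against 2.77% of all genes), none fell and 5 did not pass. The median log2 fold change was 0.30. Tmem47, a tetraspan protein of cell junctions, read 9.38, 8.43 and 8.57 in Sox17-GOF islets, against 6.49, 6.95 and 6.53 in control islets. It rose 4.39-fold (log2 fold change 2.13, SE 0.25, adjusted p = 0.00472, limma). Perp, a desmosome-associated target of p53, read 7.63, 7.43 and 7.87 in Sox17-GOF islets, against 6.75, 6.87 and 6.83 in control islets, and rose 1.77-fold (SE of log2 0.12, adjusted p = 0.00974). The epithelial membrane proteins, the closest relatives of Pmp22, did not pass, with log2 fold changes of 0.21 for Emp1, 0.30 for Emp2 and -0.01 for Emp3 (adjusted p = 0.299, 0.110 and 0.992). Cldnd1, a claudin-like protein, had 0.43 (0.122). In 5 of the 7 relatives every Sox17-GOF array lay above every control array, as in 11.3% of all genes.

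In the MAL family 1 of 8 relatives rose (12.5%, against 2.77% of all genes). Mal2, which directs proteins across epithelial cells to the apical surface, read 9.02, 8.87 and 9.28 in Sox17-GOF islets, against 8.19, 8.48 and 8.28 in control islets, a 1.67-fold increase (log2 fold change 0.74, SE 0.13, adjusted p = 0.0189, limma). Mal2 no longer passed without control replicate 1 or 3 (adjusted p = 0.0774 and 0.0692), with all probe sets (0.0555) and with a replicate block (0.0569). Plp2, the brightest relative, and Pllp, plasmolipin of myelin and epithelia, had 0.22 (adjusted p = 0.587) and 0.37 (0.0864), and Cmtm6 had -0.13 (0.493). Of 6 genes of ezrin, radixin, moesin and related actin linkers, set beside Ermn, 0 passed, 0 had an unadjusted p under 0.05 and all groups overlapped (median log2 fold change -0.02). Rdx, radixin, had -0.07 (adjusted p = 0.673) and Nf2, merlin, -0.09 (0.682).

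None of the genes flanking the members passed the test as higher. Of 32 measured neighbours, 2 on each side of each member, 0 rose by limma, 2 fell and 30 did not pass. For comparison, 2.61% of all named probe sets rose and 2.32% fell. At an unadjusted p under 0.05, 1 neighbour was higher and 8 lower, and the share of all genes at that cut-off was not counted. The median log2 fold change of the 32 was 0.0015. Next to Mobp, Rpsa, Slc25a38, Myrip and Eif1b had log2 fold changes of 0.20, -0.22, 0.19 and -0.07. Next to Ermn, Galnt5, Gpd2, Cytip and Acvr1c had 0.15, -0.26, 0.05 and -0.21, and around Pmp22 the 4 neighbours lay between -0.04 and 0.08. Next to Cnp, Ttc25 had 0.80 (adjusted p = 0.379, limma) with groups that overlapped, while Acly, Dnajc7 and Nkiras2 had -0.38, -0.19 and -0.24. The 2 that fell were Zfp516 near Mbp (-0.44, adjusted p = 0.0432) and Ffar1, a fatty acid receptor of β cells, near Mag (-0.79, adjusted p = 0.0494), and each call ended in 5 of the 6 fits that left out 1 array (adjusted p up to 0.157 and 0.164).

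Finally, genes whose values over the 6 arrays ran most like those of Mobp, Ermn and Pmp22 were sought among the 19937 genes, by the Euclidean distance between log2 values after each gene was centred on its own mean. The genes nearest to Mobp were Gsta4, a glutathione transferase (distance 0.915), Tmeff2, a transmembrane protein (0.947), Gm5886 (1.02), Rgs13 (1.23) and Cngb3 (1.47). Those nearest to Ermn were Cngb3 (0.122), Rgs13 (0.353), Jakmip2 (0.641), Pls3 (0.832) and Dmrta1 (0.842). Cngb3, a channel subunit of cone photoreceptors, followed Ermn closely on every array, with 9.37, 8.92 and 8.92 in Sox17-GOF islets, against 5.72, 5.72 and 5.90 in control islets. Those nearest to Pmp22 were Sema3e, a semaphorin (0.373), Car2 (0.384), Ppfia2 (0.457), Mfge8 (0.458) and Arhgap42 (0.470). Of these, Car2 was the 1 gene that also stood in the lists of myelin genes. Such likeness over 6 arrays rests on the size of the difference between the genotypes and is given as a description.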

How the data were processed

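The authors deposited 1 table of log2 values, produced with RMA (background correction, quantile normalisation of probes and summary per probe set). GeneSpring is the program in the methods and Affymetrix Expression Console the one in the submitters' notes, and which made the values was not settled. Nothing was rescaled and no array was left out.

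The 3 Sox17-GOF arrays were tested against the 3 control arrays using lmFit and eBayes (limma 3.58.1, R 4.3.3, no intensity trend, two-sided), with Benjamini-Hochberg adjustment over all 22961 probe sets that carry a symbol and a threshold of 0.05; 11799 of 34760 probe sets had no symbol. Each gene is shown by its brightest probe set among those with 1 symbol. The members and the 21 gene lists were chosen with earlier results of these data known. The genes named are the 8 members, defining glial markers, neighbours and nearest patterns. Up to 6 called genes and the 2 brightest uncalled genes of each list about myelin, glia or a member's family are named too. Cldn11, Opalin, Ugt8a, Gal3st1, Fa2h, Pmp2, Scn7a, Egr2, Emp1, Emp2 and Pllp were named after their values were seen. So were Krt19, Krt7, Nrcam, Kdr, Snap25, Th, Ret and Uchl1. Promoter windows came from RefSeq (GRCm38.p6). The procedure was tested on simulated data. Alternatives were leaving out each array, the replicate block, the methods' t-test, tests over all probe sets or without dim ones, averaging the probe sets of a gene, median centring, quantile normalisation, array weights and an intensity trend. The t-test was adjusted in the same way as the main test, although the methods name no adjustment for it. The number of arrays limits the precision.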

Additional observations from a re-analysis of the deposited data

How the results depend on the processing

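The log2 differences of Mobp, Ermn and Pmp22 kept their direction under every alternative and, with single arrays left out, ran from 4.31 to 4.63, 3.15 to 3.34 and 2.00 to 2.30. The log2 fold change of Sox17 ran from 0.59 to 0.71 with single arrays left out, and with the methods' t-test its value of 0.67 no longer passed (adjusted p = 0.0906). The count of called probe sets, 1133, was 558 with all probe sets, 720 with the replicate block, 71 with the methods' t-test after Benjamini-Hochberg adjustment, and 385 to 1020 with single arrays left out. The count of Mbp, Mag, Mog, Cnp and Mal that passed, 1, was 0 with all probe sets. It was 0 with the methods' t-test after adjustment, and 0 to 1 with single arrays left out. The 4 wider myelin and glial genes that rose were 0 with the methods' t-test and 3 to 5 with single arrays left out. The 1 that fell was 0 with median centring, all probe sets, the replicate block and the methods' t-test, and 0 to 1 with single arrays left out. Mog turned to 0.02 without Sox17-GOF replicate 1 and to 0.07 without control replicate 2 (range -0.14 to 0.07), and Mag turned to -0.085 without control replicate 1 (range -0.085 to 0.094). The methods' t-test after adjustment ended every call of a named gene. The methods name no such adjustment and add a fold threshold. Whether these genes pass the paper's own criterion was not tested. The causes were not tested.

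Deviations of same-numbered arrays of the 2 genotypes from their group means had correlations of 0.05, -0.02 and -0.04. Deviations from a mean of 3 arrays cancel within a group, so these values cannot decide whether the samples were paired. With the replicate block, Cnp still passed (adjusted p = 0.0195), and the calls of Tspan2, Mal2, Egr1, Zfp516 and Snap25 ended (0.0696, 0.0569, 0.0848, 0.0676 and 0.0871).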
